A study of Homo sapiens with 15 samples.

Results

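Of the 22572 consensus H3K4me3 peaks of this series, 271 were lost in metastatic breast cancer cells, and these are described here. They were selected on the H3K4me3 counts themselves. A peak had to reach 3 CPM (the count times 1000000 over the total of its library) in both replicates of the parental line, and to fall in both replicates of a metastatic line to at most 0.4 times the parental replicate of the same number. The parental minimum left 14609 eligible peaks. Of these, 163 (1.12%) were lost in LM2 and 156 (1.07%) in BrM2, which leaves 115 lost in LM2 only, 108 in BrM2 only and 48 in both. The remaining 14338 eligible peaks are called kept. All H3K4me3 values of the lost peaks are therefore given as a description without a test, and the tests below are made on H3K27ac, whose libraries took no part in the choice. In these bulk libraries, a mark lost from some of the cells and less of it in every cell cannot be told apart.

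The parental cells (Par) were MDA-MB-231, an established triple-negative human breast cancer line, and the metastatic cells were its sub-populations LM2, which colonizes the lung, and BrM2, which colonizes the brain. All were grown without further treatment in medium with 10% serum for 3 days and fixed with 1% formaldehyde, and each line gave 2 biological replicates for each histone mark. LM2 and BrM2 were each 1 sub-population grown in culture, so differences are between 3 cell stocks and not between tumours in organs. The 12 libraries held 1994996 to 9839629 counts in peaks, with BrM2 replicate 2 the shallowest for H3K27ac and Par replicate 1 for H3K4me3. Markers of a mesenchymal basal line carried H3K4me3 in every line, with 10 of 10 promoters eligible and a summed level of 2046 to 2058 CPM in Par, 1836 to 1888 in LM2 and 2045 to 2061 in BrM2. Of the luminal markers 6 of 10 were eligible and none was lost, with a summed level of 287 to 331 CPM in Par, 306 to 325 in LM2 and 369 to 434 in BrM2. Also eligible were 2 of 3 fibroblast, 1 of 3 lung and 1 of 4 leukocyte markers (CD14), whereas no endothelial (of 3) or neural marker (of 4) was, and the leukocyte gene PTPRC had no peak.

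H3K4me3 is the trimethylated form of lysine 4 of histone H3. It is placed by SET1 and MLL complexes at the start sites of active and poised genes, most often where the DNA is rich in CpG, and is removed by demethylases of the KDM5 family. H3K27ac, the acetylated form of lysine 27, marks active promoters and also active enhancers, so a promoter that loses both marks differs from one that loses H3K4me3 alone. In this cell type, keratins and claudins are remnants of an epithelial identity that claudin-low lines have largely given up.

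The sequences before the start sites of 5 lost promoters show how different their DNA was. They are from the promoter peaks of each class with the highest parental level whose 250 bases before the start overlapped no annotated exon, read 5′ to 3′ on the strand of the gene from GRCh37 (hg19), with every CG dinucleotide in capitals. DNMBP (chr10:101690754-101691003, minus strand) and ADGRF5 (chr6:46889676-46889925, minus strand) were lost in LM2 only, SORCS2 (chr4:7194015-7194264, plus strand) in BrM2 only, and KLF14 (chr7:130418968-130419217, minus strand) and SLC2A3 (chr12:8171604-8171853, minus strand) in both.
DNMBP: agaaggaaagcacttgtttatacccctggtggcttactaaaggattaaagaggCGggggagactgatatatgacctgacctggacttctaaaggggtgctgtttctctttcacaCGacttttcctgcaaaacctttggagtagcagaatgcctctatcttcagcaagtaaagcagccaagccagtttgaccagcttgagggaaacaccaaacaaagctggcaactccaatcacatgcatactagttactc
ADGRF5: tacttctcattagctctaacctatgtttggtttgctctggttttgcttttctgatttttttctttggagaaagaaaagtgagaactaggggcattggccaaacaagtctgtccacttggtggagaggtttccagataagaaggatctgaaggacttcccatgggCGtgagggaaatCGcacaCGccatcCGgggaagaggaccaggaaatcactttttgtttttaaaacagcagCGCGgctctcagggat
SORCS2: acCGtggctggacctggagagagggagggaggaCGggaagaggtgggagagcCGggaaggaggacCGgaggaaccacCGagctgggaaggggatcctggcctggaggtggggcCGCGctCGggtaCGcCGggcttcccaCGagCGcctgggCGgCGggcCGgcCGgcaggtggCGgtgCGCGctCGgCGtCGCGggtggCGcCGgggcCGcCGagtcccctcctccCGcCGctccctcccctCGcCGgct
KLF14: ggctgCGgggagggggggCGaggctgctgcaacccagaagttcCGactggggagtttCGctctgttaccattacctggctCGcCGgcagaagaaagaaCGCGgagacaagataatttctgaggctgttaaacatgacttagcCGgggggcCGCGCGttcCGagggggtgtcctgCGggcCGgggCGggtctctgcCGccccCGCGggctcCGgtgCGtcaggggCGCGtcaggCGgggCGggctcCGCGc
SLC2A3: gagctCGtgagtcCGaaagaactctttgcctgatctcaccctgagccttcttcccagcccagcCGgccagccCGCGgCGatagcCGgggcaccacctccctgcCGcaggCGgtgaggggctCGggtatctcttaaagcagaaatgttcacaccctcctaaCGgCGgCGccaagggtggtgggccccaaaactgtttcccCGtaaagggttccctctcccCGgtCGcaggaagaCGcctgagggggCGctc
The stretch before DNMBP held 2 CG dinucleotides and that before ADGRF5 held 6, both with a GC content of 45.6%. SORCS2 held 31, KLF14 27 and SLC2A3 18. CpG-poor and CpG-rich stretches thus both occurred among these 5, which cover the bases before a start and not whole peaks. Because of the exon limit, not all 5 are among the most strongly marked lost promoters.

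Lost peaks were weak and short compared with those that were kept. The rule itself favours weak peaks, as a ratio of few counts varies more. How far this set their level and length was not tested. The median parental level was 8.17 CPM for peaks lost in LM2 only, 7.37 for those lost in BrM2 only and 8.38 for those lost in both, against 54.2 for kept peaks, and the highest levels were 129, 183 and 121 CPM. The median length was 1191, 904.5 and 995 bp against 2206 bp. Fewer lay within 2 kb of the start of a protein-coding gene, with 52.2% (60 of 115), 49.1% (53 of 108) and 60.4% (29 of 48) against 81.8% of kept peaks. A further 14.8%, 8.33% and 18.8% lay only at the start of a long noncoding RNA, against 6.23% of kept peaks. Intergenic midpoints made up 33.0%, 26.9% and 29.2% of the classes and 18.0% of kept peaks. The median GC content was similar, at 58.5%, 59.0% and 59.2% against 56.6%.

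**Figure D1:**
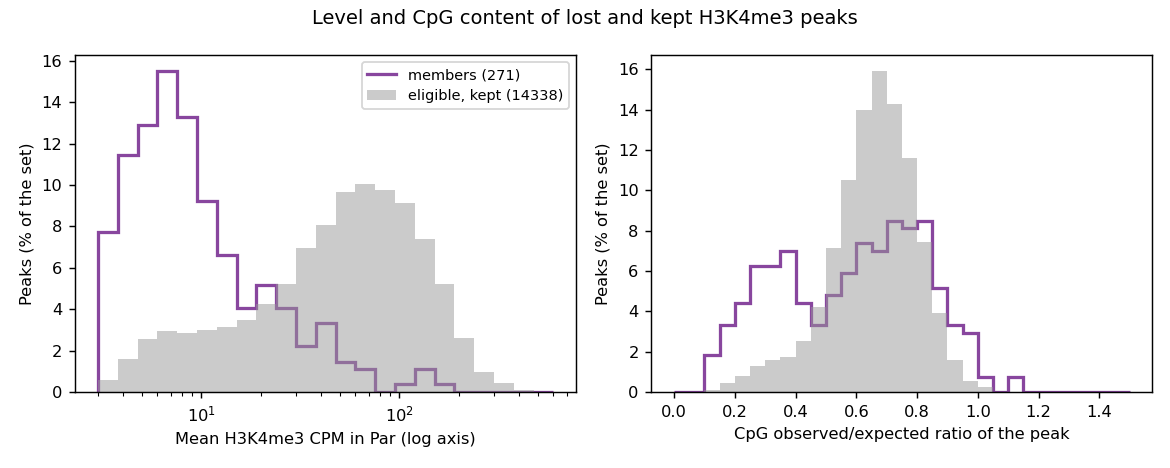
Share of lost peaks (members, purple outline) and of kept eligible peaks (grey) by mean parental H3K4me3 CPM on a log axis (left) and by the observed to expected CpG ratio of the peak (right). Lost peaks sit at low levels, with class medians of 7.37 to 8.38 CPM against 54.2 for kept peaks, and have a second group at low CpG ratio.

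The CpG ratio, the number of CG dinucleotides over that expected from the base composition, fell into a low and a high group among the lost peaks, as the histogram of CpG content shows. It was below 0.4 in 30.4%, 28.7% and 27.1% of the 3 classes against 6.0% of kept peaks, and for promoter peaks alone in 18.3%, 17.0% and 27.6% against 3.63%. These contrasts were smaller, and that of promoters turned, at a like level. Among the peaks at 5.38 to 14.2 CPM in Par, the middle range of the lost peaks, 53.3% of 135 lost and 42.4% of 1780 kept peaks were promoters, the median length was 1004 and 1208.5 bp, and 29.6% and 20.1% had a CpG ratio below 0.4. Here lost peaks were more often, not less often, at promoters.

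Short motifs were counted on both strands in the 300 bases from 250 before to 50 after the start of each promoter peak. GGGCGG, the core of the SP1 box, was present in 71.1% of the 142 lost promoters and 76.4% of all 11866 eligible ones. CCGGAA, the core of ETS sites, was present in 16.9% and 28.0%, with 21.7% in promoters lost in LM2 only, 18.9% in BrM2 only and 3.45% (1 of 29) in both. TATAAA was found in 7.04% and 4.12%, TGANTCA, the AP-1 motif, in 4.23% and 3.87%, CACGTG in 10.6% and 9.30%, and CCAAT in 25.4% and 32.1%. GGGCGG itself holds a CG dinucleotide, as do the ETS core and the CACGTG box, and the median number of CG dinucleotides per window was 24 and 29.

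The remaining H3K4me3 varied widely between lost peaks. The larger of the 2 replicate ratios had a median of 0.237 in LM2 and 0.239 in BrM2. It was at most 0.1 for 18 of 163 peaks in LM2 and 33 of 156 in BrM2, and above 0.3 for 59 and 53. In BrM2, 4 peaks had no count in either replicate, whereas in LM2 none did, although 18 peaks were at 0 in the shallower replicate 1. The limit of 0.4 cut through a continuum. In LM2 the peaks just inside included RDM1 (0.396) and GBX2 (0.386), and the first outside were IFIT3, a peak near BEST4 and SLC35F3 (all 0.40). In BrM2, S100A4, a peak near KCNIP2 and one near PARP14 (all 0.399) were just inside, and a peak near PRKX, NCMAP and TCEANC (all 0.401) just outside. In a DESeq2 fit, 93 of the 163 peaks lost in LM2 and 102 of the 156 lost in BrM2 were among the lower H3K4me3 calls, which made up 0.538% and 0.791% of all tested peaks, but the same libraries chose them.

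**Figure D2:**
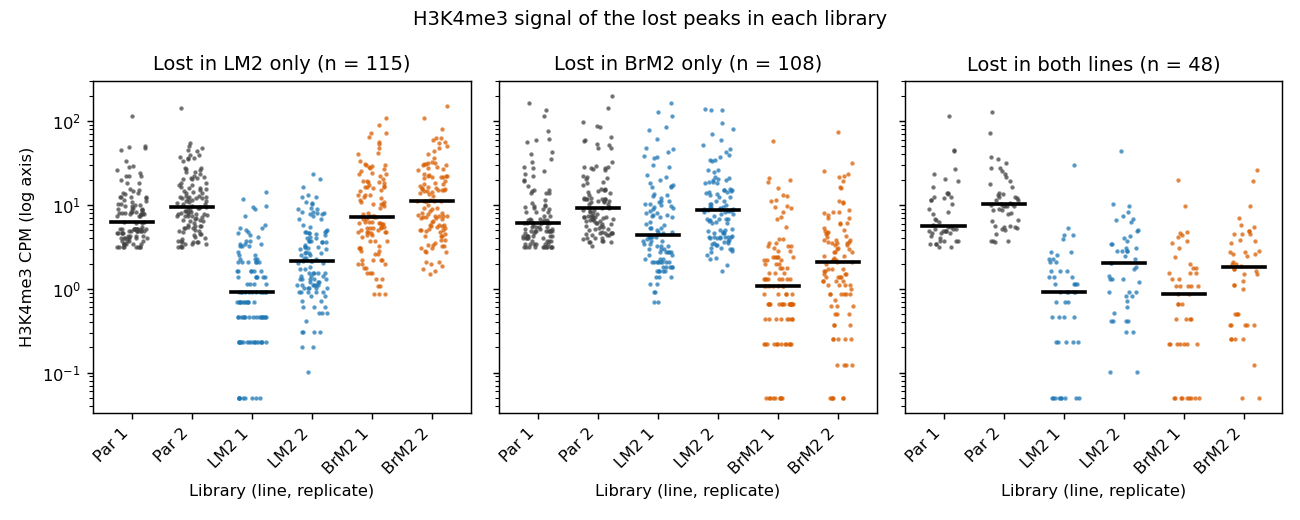
H3K4me3 CPM (log axis) of every lost peak in each of the 6 libraries, by class; a point is a peak, a black bar the median, and peaks with no count are drawn at 0.05. Peaks lost in LM2 only keep a median of 8.65 CPM (mean of replicates) in BrM2, and those lost in BrM2 only keep 6.37 in LM2.

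Replicates that did not choose the peaks showed the same direction. When peaks were chosen on replicate 1 alone, 384 were lost in LM2, and in replicate 2 their median log2 ratio of CPM + 0.5 was -1.11, with 93.0% lower than in Par, against -0.03 and 53.6% for all 14684 peaks with the parental minimum in replicate 1. Chosen on replicate 2, 330 peaks had a median of -1.57 in replicate 1 (93.9% lower, against 55.2% of 16316). For BrM2 the medians in the other replicate were -1.33 for 292 peaks (94.9% lower) and -1.43 for 371 peaks (94.3% lower). Of the 384 and 330 peaks chosen in LM2, 43.8% and 69.1% also met the limit of 0.4 in the other replicate, and in BrM2 56.5% and 69.0% did, against 1.41% to 3.52% of all such peaks.

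Among the peaks lost in both lines, those at KRT7 and CLDN4 had the highest parental levels. The summed level of the luminal epithelial markers overlapped that of Par in LM2 and was higher in BrM2, but single markers moved in opposite directions. In LM2, the keratin KRT19 had 67.5 and 51.8 CPM against 130 and 115 in Par, and PGR and ELF3 were also lower in both replicates. ESR1 had 39.5 and 38.3 CPM in LM2 against 6.88 and 7.15 in Par, and FOXA1, EPCAM and CDH1 were also higher in both replicates. In BrM2, KRT19 and ELF3 were lower and ESR1, PGR, FOXA1, EPCAM and CDH1 higher than Par in both replicates. KRT7, a keratin of simple epithelia, had the highest parental level of the peaks lost in both lines (chr12:52625732-52629696, in an intron and over the start). It measured 114 and 127 (Par), 30.1 and 43.7 (LM2) and 20.1 and 25.8 (BrM2) CPM. Both metastatic lines were far below Par in both replicates. CLDN4 (chr7:73244932-73247659), a claudin of tight junctions, measured 43.6 and 71.3 (Par), 2.75 and 7.42 (LM2) and 9.6 and 19.5 (BrM2) CPM, and was lowest in LM2. SCNN1A (chr12:6481591-6486324), the alpha subunit of the epithelial sodium channel, measured 26.7 and 37.1 (Par), 1.61 and 5.08 (LM2) and 1.75 and 2.73 (BrM2) CPM. Both metastatic lines lay below every Par library and overlapped each other.

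KLF14 (chr7:130418268-130419541), a Krüppel-like factor encoded by a single exon, measured 45.3 and 35 (Par), 2.75 and 6.71 (LM2) and 0 and 0.372 (BrM2) CPM, and its BrM2 libraries held 0 and 3 counts. TNFSF10 (chr3:172238037-172241499), the death ligand TRAIL, measured 23.5 and 27.9 (Par), 4.36 and 6.61 (LM2) and 3.49 and 4.46 (BrM2) CPM. CFLAR (chr2:201994495-201996567), an inhibitor of caspase-8 at death receptors, measured 12 and 13.4 (Par), 1.38 and 0.915 (LM2) and 3.06 and 4.83 (BrM2) CPM. The peaks of TNFSF10 and CFLAR lie over annotated starts and had low CpG ratios of 0.139 and 0.190.

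**Figure D3:**
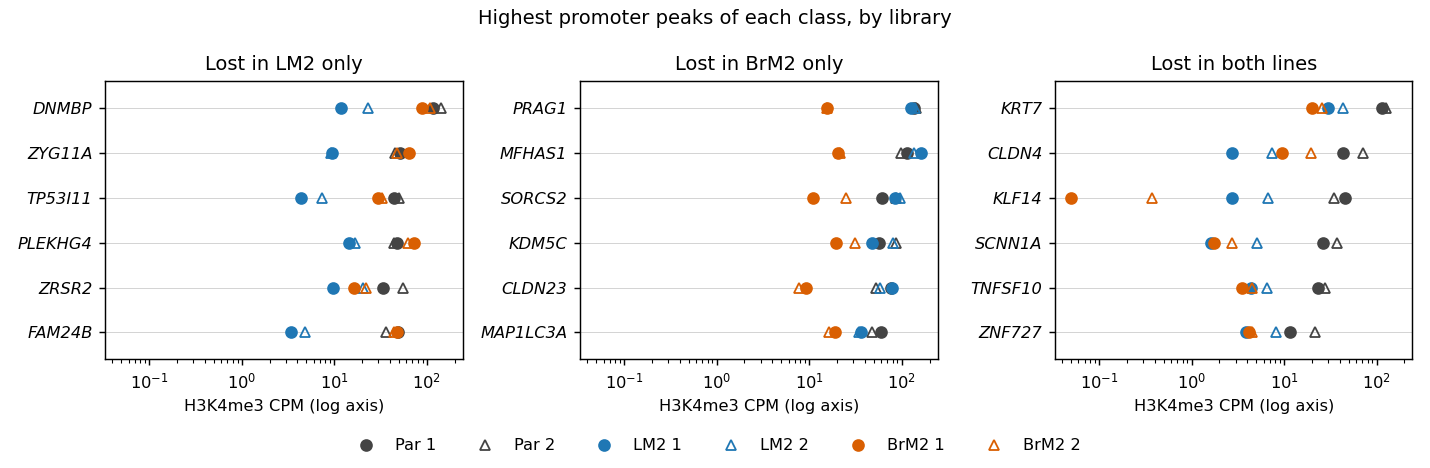
H3K4me3 CPM (log axis) of the 6 promoter peaks with the highest parental level in each class; circles are replicate 1, open triangles replicate 2, and colours the lines, with the empty library of KLF14 drawn at 0.05. In each row the libraries of the losing line lie left of both parental libraries, down to 0 and 0.372 CPM for KLF14 in BrM2.

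The lowest remaining levels of the class lay elsewhere. A peak 135189 bp from ZNF92 on chromosome 7 (chr7:64973983-64975088) went from 13.8 and 16.4 CPM in Par to no count in BrM2, which against a floor of 3 counts per library is at least 21.0-fold lower. ANKRD7 (chr7:117854134-117854947) likewise had no count in BrM2 and was at least 6.13-fold lower. LGALS12 (chr11:63273586-63274864), a galectin gene, measured 4.87 and 11.3 (Par), 0 and 0.102 (LM2) and 0.218 and 0.372 (BrM2) CPM, and C1orf115 (chr1:220863681-220864071) measured 4.3 and 5.06 (Par), 0.23 and 0.407 (LM2) and 0 and 0.248 (BrM2) CPM. SLC2A3 (chr12:8171109-8171974), the glucose transporter GLUT3, measured 13.5 and 13.1 (Par), 2.52 and 3.05 (LM2) and 0.218 and 0.248 (BrM2) CPM, so more was left in LM2 than in BrM2. The remaining members at listed genes were weak in Par, at 3.72 to 7.21 CPM on average for GDF15, a stress-induced cytokine, IFI27, an interferon-induced gene, PITX3, a homeobox factor, and FZD9, a WNT receptor. ZNF727, a zinc finger gene, stood higher at 16.5 CPM.

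Peaks lost in LM2 only were led by DNMBP (chr10:101684695-101691707), a scaffold protein of the cell cortex that activates CDC42. It measured 115 and 143 (Par), 11.7 and 23.4 (LM2) and 89.7 and 109 (BrM2) CPM, so that BrM2 stayed close to Par. ZYG11A (chr1:53308054-53310427), a substrate receptor of a cullin ubiquitin ligase, measured 50.7 and 45.6 (Par), 9.41 and 9.15 (LM2) and 64.4 and 47.3 (BrM2) CPM. TP53I11 (chr11:44970786-44972831), a gene induced by p53, measured 44.7 and 50.2 (Par), 4.36 and 7.42 (LM2) and 29.9 and 32.6 (BrM2) CPM. FAM24B (chr10:124637633-124640117) measured 49.3 and 36 (Par), 3.44 and 4.78 (LM2) and 47.4 and 44.2 (BrM2) CPM. In all 4 the LM2 libraries lay below every other library. PLEKHG4 (chr16:67311543-67314027) kept more in LM2, with 47.3 and 44.1 (Par), 14.5 and 16.6 (LM2) and 72.7 and 62.7 (BrM2) CPM. ZRSR2 (chrX:15807763-15809766), a splicing factor of minor introns, measured 33.2 and 54.8 (Par), 9.64 and 20.4 (LM2) and 16.2 and 21.9 (BrM2) CPM, and was below Par in BrM2 as well.

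Some LM2 losses were nearly complete. RPS6KA6 (chrX:83442010-83443684), the kinase RSK4, measured 8.88 and 12.5 (Par), 0.23 and 0.305 (LM2) and 41.3 and 55.9 (BrM2) CPM. CCBE1 (chr18:57362582-57365015), a secreted factor of lymphatic growth, measured 7.74 and 15.3 (Par), 0.23 and 0.102 (LM2) and 29.7 and 36.4 (BrM2) CPM. Both were near 0 in LM2 and stood above Par in BrM2. RNF165 (chr18:43913437-43914704), a ubiquitin ligase, measured 22.1 and 18.2 (Par), 0.689 and 0.508 (LM2) and 14.8 and 14.4 (BrM2) CPM, and SLC10A4 (chr4:48485046-48485827), a transporter-like protein of vesicles, measured 5.16 and 9.83 (Par), 0.23 and 0.203 (LM2) and 5.02 and 9.05 (BrM2) CPM. For SLC10A4 the BrM2 libraries overlapped those of Par, and for RNF165 they lay below them but above LM2.

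Among all 115 peaks lost in LM2 only, 43 were at or above Par in both BrM2 replicates and 54 below in both, and the median ratio was 0.933. In 11 peaks BrM2 was at least 2.5 times Par in both replicates, while LM2 was at most 0.4 times. The highest of them lay 921010 bp from ALCAM on chromosome 3 (chr3:104157424-104164743) and measured 7.45 and 4.47 (Par), 0.23 and 1.12 (LM2) and 108 and 152 (BrM2) CPM. ADGRL3 (chr4:62065814-62067714), an adhesion receptor that binds teneurins, measured 4.87 and 7.3 (Par), 0.689 and 1.22 (LM2) and 56.5 and 60.0 (BrM2) CPM, and KBTBD8 (chr3:67048187-67049500), a cullin-3 adaptor, measured 6.02 and 6.7 (Par), 0 and 1.12 (LM2) and 24 and 21.7 (BrM2) CPM. The others were CYB5R2, LRRC4C, CTNNA2, CYP7B1, PLPPR1, RPS6KA6 and peaks near DPYD and CDH20. In the opposite direction, 4 of the 108 peaks lost in BrM2 only were at least 2.5 times Par in both LM2 replicates. They were EVC2, AKAP12, TEX15 and a peak 372517 bp from ZFHX4. AKAP12 (chr6:151561174-151562353), a scaffold of protein kinase A, measured 16.9 and 11 (Par), 46.4 and 37.8 (LM2) and 2.84 and 3.1 (BrM2) CPM. These 15 peaks were singled out after their values were seen.

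Peaks lost in BrM2 only included the strongest of all lost peaks, a 13457 bp domain on the X chromosome (chrX:45618182-45631638) that lies over the start of an unnamed long noncoding RNA, 558036 bp from the nearest protein-coding start, DIPK2B. It measured 166 and 199 (Par), 115 and 136 (LM2) and 58.5 and 74 (BrM2) CPM. LM2 lay between Par and BrM2 in this domain. PRAG1 (chr8:8240744-8245179), a pseudokinase of cell adhesion signalling, measured 136 and 143 (Par), 127 and 139 (LM2) and 15.7 and 15.7 (BrM2) CPM. MFHAS1 (chr8:8749389-8751754) measured 115 and 98.3 (Par), 163 and 137 (LM2) and 20.7 and 21.6 (BrM2) CPM. SORCS2 (chr4:7193834-7196218), a receptor of the sortilin family, measured 61.9 and 86.7 (Par), 84.7 and 95.6 (LM2) and 11.1 and 25.3 (BrM2) CPM. In the last 3, LM2 stayed close to Par or stood above it.

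KDM5C (chrX:53252331-53255081), a demethylase that itself removes H3K4me3, measured 57 and 86.1 (Par), 47.7 and 79.6 (LM2) and 19.6 and 31.6 (BrM2) CPM. It was the single lost promoter among the 20 eligible promoter peaks of the listed H3K4 methylation writers and erasers. CLDN23 (chr8:8558434-8560525), another claudin, measured 75.9 and 52.4 (Par), 78 and 58.9 (LM2) and 9.17 and 7.68 (BrM2) CPM, and MAP1LC3A (chr20:33145619-33147046), an autophagy protein of the LC3 family, measured 59.9 and 48 (Par), 36.3 and 34.7 (LM2) and 19 and 16.5 (BrM2) CPM. IRX1 (chr5:3594909-3598164), a homeobox factor, measured 42.4 and 47.2 (Par), 61.3 and 69.9 (LM2) and 3.27 and 6.07 (BrM2) CPM, and IFITM10 (chr11:1768243-1771955), of the interferon-induced transmembrane family, measured 27.8 and 64.2 (Par), 30.1 and 51.7 (LM2) and 1.96 and 3.35 (BrM2) CPM. For IRX1, LM2 stood above Par. S100A4 (chr1:153515648-153519091), a calcium-binding protein known from metastasis, measured 23.5 and 58.4 (Par), 12.6 and 26 (LM2) and 9.39 and 23.2 (BrM2) CPM. Its replicate 1 in Par was at the level of replicate 2 in LM2 and BrM2, so that the lines overlapped across replicate numbers.

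Near-complete losses in BrM2 were found at smaller peaks. A peak in a coding exon of VGLL2 (chr6:117591621-117592360), a cofactor of TEAD factors, measured 15.2 and 13.1 (Par), 11 and 18.2 (LM2) and 0.218 and 0.248 (BrM2) CPM. A peak in an intron of NBDY (chrX:56790318-56791007) measured 3.44 and 4.77 (Par), 4.82 and 9.25 (LM2) and 0 and 0 (BrM2) CPM, and MIXL1 (chr1:226411306-226411862), a mesendoderm homeobox gene, measured 3.15 and 3.57 (Par), 1.61 and 3.05 (LM2) and 0 and 0 (BrM2) CPM. A peak in an intron of ZDHHC14 (chr6:158013751-158014230) measured 4.3 and 5.36 (Par), 1.15 and 2.85 (LM2) and 0 and 0.124 (BrM2) CPM. The parental levels here were close to the minimum of 3 CPM, except for VGLL2.

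H3K27ac was then examined at the same places, to see whether the second active mark differed there too. An H3K27ac peak overlapped 97 of the 115 peaks lost in LM2 only (84.3%), 93 of the 108 lost in BrM2 only (86.1%), 37 of the 48 lost in both (77.1%) and 97.9% of kept peaks. At the level of 5.38 to 14.2 CPM the shares were 83.7% of lost and 89.9% of kept peaks. Each lost peak was paired with the H3K27ac peak sharing the most bases, and the H3K27ac counts of the 6 libraries were tested with DESeq2, with p-values adjusted over all H3K27ac peaks.

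At peaks that lost H3K4me3 in LM2, H3K27ac fell in LM2. Of 113 peaks with an adjusted p, 28 were lower in LM2 than in Par (24.8%) and none was higher, against 0.907% lower and 2.72% higher of all 48931 H3K27ac peaks tested and 0.413% lower of the 13790 at kept H3K4me3 peaks. The median log2 fold change was -1.0 at the 134 paired peaks and -0.13 at kept peaks. It was -0.83 in replicate 1 and -1.0 in replicate 2, and 115 peaks (85.8%) were lower in both replicates, against 41.5% of kept ones. For the count of 0 higher calls, the same fit gave 0 at an unadjusted p under 0.05 and edgeR gave 0, while edgeR with the replicate block gave 1. At kept peaks of 5.38 to 14.2 CPM, 3 of 1456 were lower (0.206%), against 10 of 54 lost peaks at this level (18.5%).

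In BrM2 the same was seen at its own losses. Of 115 peaks with an adjusted p, 29 were lower in BrM2 than in Par (25.2%) and none higher, against 1.67% lower and 3.62% higher of all 51342 tested and 1.28% lower at kept H3K4me3 peaks. The median log2 fold change was -1.17 at 130 paired peaks and -0.07 at kept ones, with -1.10 and -1.14 in the 2 replicates. At an unadjusted p under 0.05, and in edgeR with and without the replicate block, 0 were higher. At 5.38 to 14.2 CPM, 13 of 58 lost (22.4%) and 16 of 1493 kept peaks (1.07%) were lower.

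The losses of one line were compared between the metastatic lines directly. At peaks lost in LM2 only, H3K27ac was higher in BrM2 than in LM2 at 19 of 76 peaks and lower at none, with a median log2 fold change of 1.07, against 1.71% higher of all 46519 peaks and 0.554% at kept ones. At peaks lost in BrM2 only it was lower in BrM2 than in LM2 at 16 of 78 peaks and higher at none, with a median of -0.84, against 1.22% lower of all peaks and 0.539% at kept ones. For the 0 lower calls at LM2 losses, 1 peak had an unadjusted p under 0.05, edgeR gave 0 and edgeR with the block 1. DESeq2 with the median of each 5 Mb window removed also gave 1. For the 0 higher calls at BrM2 losses, all of these gave 0. At peaks lost in BrM2 only, 0 of 81 were called in LM2 against Par in DESeq2, with 6 lower and 4 higher at an unadjusted p under 0.05, 1 lower call in edgeR, and 9 lower and 4 higher in edgeR with the block. At peaks lost in LM2 only, 4 of 87 were lower and 5 higher in BrM2 against Par, beside 1.67% lower and 3.62% higher of all peaks. At the 37 paired peaks lost in both lines, the direct comparison had a median of -0.00, with 3 lower and 1 higher call among 31.

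**Figure D4:**
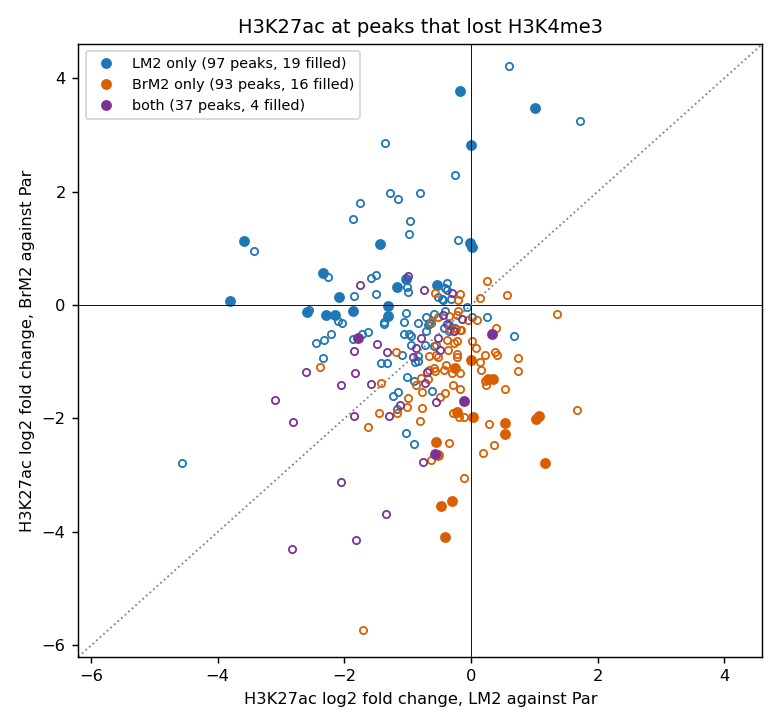
H3K27ac log2 fold change of LM2 against Par (horizontal) and BrM2 against Par (vertical) at each lost peak with an H3K27ac peak, coloured by the class of the H3K4me3 loss; filled points differ between BrM2 and LM2 at an adjusted p under 0.05 (DESeq2), and the dotted line marks equal change. By their median, peaks lost in LM2 only lie above the line (1.07 for BrM2 against LM2) and those lost in BrM2 only below it (-0.84).

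These counts depend on single libraries, as each arm has 2. The 28 lower peaks in LM2 became 9 without Par replicate 1, 8 without Par replicate 2, 5 without LM2 replicate 1, 9 without LM2 replicate 2 and 17 without BrM2 replicate 1, while the share of all peaks called lower fell to 0.131% to 0.505% in these fits. The 29 in BrM2 became 13, 12, 16, 6 and 14 without Par replicate 1, Par replicate 2, LM2 replicate 1, BrM2 replicate 1 and BrM2 replicate 2. As for LM2, the share of all peaks called fell in these fits for BrM2, and it did so in the direct comparisons below. The medians stayed between -1.10 and -0.80 for LM2 and between -1.28 and -1.03 for BrM2 in all 6 such fits. In the direct comparison the 19 peaks became 4, 5, 3 and 6 without LM2 replicate 1, LM2 replicate 2, BrM2 replicate 1 and BrM2 replicate 2, and the 16 became 7, 4, 0 and 9. For the 0 without BrM2 replicate 1, 24 peaks had an unadjusted p under 0.05 in DESeq2, the tool of all these fits, and the median was -0.95.

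The size of the H3K27ac difference varied with the H3K4me3 loss. Where the larger H3K4me3 ratio was at most 0.2, the median H3K27ac log2 fold change was -1.51 in LM2 (46 peaks) and -1.81 in BrM2 (42 peaks), against -0.86 and -0.95 at 88 peaks in each line above 0.2. Promoter and other peaks had medians of -1.05 and -0.91 in LM2 and -1.04 and -1.32 in BrM2. In LM2, CpG-poor peaks (ratio below 0.4) had a median of -0.61 with H3K27ac peaks of 5657 bp, and the others -1.17 with 988 bp; in BrM2 the medians were -1.10 and -1.19. A long H3K27ac peak holds counts from outside the lost H3K4me3 peak.

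Among the LM2 losses, 3 members had the firmest H3K27ac differences. PLAAT5, a phospholipid acyltransferase, had normalized H3K27ac counts of 134 and 86.1 (Par), 4.49 and 4.93 (LM2) and 13.6 and 19.3 (BrM2), with a log2 fold change in LM2 against Par of -4.56 ± 0.58 (SE, adjusted p = 8.13e-12) (DESeq2, all adjusted p below as well). BrM2 was lower too, at -2.79 ± 0.52 (SE, adjusted p = 1.27e-05). A CpG-poor peak in an intron of ZNF675 (chr19:23732548-23735063) had counts of 426 and 365 (Par), 64.5 and 93.6 (LM2) and 587 and 582 (BrM2). It was lower in LM2, at -2.34 ± 0.29 (SE, adjusted p = 1.73e-12), and BrM2 exceeded LM2 by 2.90 ± 0.29 (SE, adjusted p = 2.83e-19). DACT2 (chr6:168719971-168721364), an antagonist of WNT signalling, had counts of 35.7 and 22 (Par), 3.37 and 0.986 (LM2) and 59.5 and 67.5 (BrM2), and BrM2 exceeded LM2 by 4.70 ± 0.73 (SE, adjusted p = 1.61e-07), while LM2 against Par gave -3.58 ± 0.74 (SE, adjusted p = 2.18e-04). Without LM2 replicate 1 the last value lost its call (adjusted p = 0.138), as did PLAAT5 in BrM2 without Par replicate 1 (0.0511). The others in this paragraph kept theirs in all 6 such fits.

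MANCR (chr10:4713376-4720899), a long noncoding RNA named for its association with mitosis, had counts of 1737 and 1111 (Par), 579 and 564 (LM2) and 1339 and 1157 (BrM2) and fell in LM2, at -1.32 ± 0.28 (SE, adjusted p = 2.65e-04). ZYG11A fell, at -1.87 ± 0.42 (SE, adjusted p = 8.93e-04), FAM24B fell, at -2.08 ± 0.50 (SE, adjusted p = 0.00267) and TP53I11 fell, at -2.10 ± 0.59 (SE, adjusted p = 0.0166). At TP53I11, BrM2 against LM2 gave 1.82 (adjusted p = 0.0743, 0.0476 with the replicate block). DNMBP, with the highest parental H3K4me3 level of the class, had counts of 714 and 732 (Par), 597 and 495 (LM2) and 897 and 877 (BrM2) and a log2 fold change of -0.40 ± 0.24 (SE, adjusted p = 0.544). Its direct difference was 0.70 with an adjusted p of 0.0981, and 0.00493 with the replicate block. PLEKHG4 gave -0.84 ± 0.27 (SE, adjusted p = 0.0547), with 0.00674 in the block. Without Par replicate 1 the LM2 calls of MANCR (adjusted p = 0.0880), ZYG11A and FAM24B were lost, and without LM2 replicate 1 those of ZYG11A, FAM24B and TP53I11. That of FAM24B was also lost without LM2 replicate 2, and that of TP53I11 without Par replicate 2, LM2 replicate 2 or BrM2 replicate 1, so that adjusted p-values in these fits ran from 0.0558 to 0.592.

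A few LM2 losses did not fall in H3K27ac. KBTBD8 had counts of 11.3 and 4.01 (Par), 9.54 and 22.7 (LM2) and 118 and 52.1 (BrM2), with 1.0 ± 0.67 (SE, adjusted p = 0.62) in LM2 and 3.47 ± 0.64 (SE, adjusted p = 1.28e-05) in BrM2. Without BrM2 replicate 1 the latter had an adjusted p of 0.155. A peak in an intron of KCTD1 (chr18:24229402-24229842) gave 1.73 ± 1.16 (SE, adjusted p = 0.625), on at most 21.2 normalized counts. At the domain near ALCAM, H3K27ac was 39.2 and 31 (Par), 20.2 and 44.4 (LM2) and 461 and 499 (BrM2), and rose in BrM2 against Par by 3.77 ± 0.37 (SE, adjusted p = 1.23e-20).

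Among BrM2 losses, IFITM10 had counts of 109.8 and 228 (Par), 90.3 and 146 (LM2) and 21.4 and 34.7 (BrM2) and fell in BrM2 against Par, at -2.64 ± 0.46 (SE, adjusted p = 3.29e-06). PRAG1 had 86.2 and 138 (Par), 71.8 and 89.7 (LM2) and 10.7 and 7.71 (BrM2) and fell, at -3.55 ± 0.54 (SE, adjusted p = 2.23e-08). The domain near DIPK2B had 1985 and 1797 (Par), 1609 and 1555 (LM2) and 916 and 841 (BrM2) and fell, at -1.10 ± 0.23 (SE, adjusted p = 2.35e-04). These 3 calls held in all 6 fits that left out a library, but with the median of each 5 Mb window removed the domain near DIPK2B had a value of -0.05 and no call. IRX1 had 34 and 49.1 (Par), 25.8 and 42.4 (LM2) and 4.87 and 1.93 (BrM2) and fell, at -3.46 ± 0.79 (SE, adjusted p = 9.23e-04), and without BrM2 replicate 1 its adjusted p was 0.197. The 3 H3K27ac peaks within 500 kb of IRX1 had a median of -1.78 in BrM2, whose part in the result was not tested. A peak in a coding exon of GRM5, 149352 bp from the start of CTSC (chr11:88241515-88242730), had 176 and 115 (Par), 128 and 121 (LM2) and 41.9 and 36.6 (BrM2) and fell, at -1.88 ± 0.38 (SE, adjusted p = 1.19e-04), with 0.0574 without Par replicate 1 and -1.15 (0.0652) with 5 Mb window medians removed. In none of these did LM2 against Par pass the test, at adjusted p-values of 0.944 for IRX1, 0.732 for IFITM10, 0.755 for PRAG1, 0.796 near DIPK2B and 0.925 at GRM5.

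KDM5C had counts of 66.2 and 95.2 (Par), 92 and 113 (LM2) and 26.3 and 40.5 (BrM2) and fell in BrM2, at -1.31 ± 0.43 (SE, adjusted p = 0.0414), a call that no fit without a library kept (adjusted p 0.0996 to 0.687), and H3K27ac peaks within 500 kb had a median of -0.93 as well. With the median of each 5 Mb window removed, KDM5C had an H3K27ac log2 fold change of -0.33 and no call (adjusted p = 0.903). MAP1LC3A had 179 and 135 (Par), 90.9 and 105 (LM2) and 55.6 and 73.3 (BrM2) and fell, at -1.31 ± 0.36 (SE, adjusted p = 0.00881), which was lost without Par replicate 1, BrM2 replicate 1 or BrM2 replicate 2 (0.0573 to 0.423). SORCS2 gave -2.61 ± 1.07 (SE, adjusted p = 0.157) and MFHAS1 -2.47 ± 0.99 (SE, adjusted p = 0.142), with adjusted p-values of 3.11e-05 and 2.33e-07 in the replicate block. The Par counts of SORCS2 were 35.7 and 135 in the 2 replicates. S100A4 had counts of 680.4 and 1219 (Par), 469 and 853 (LM2) and 439.7 and 567 (BrM2) and gave -0.92 ± 0.35 (SE, adjusted p = 0.108), with 5.96e-04 in the block. COCH and a peak near LPO had the highest values of the class, 0.42 and 0.22, on at most 17.4 and 10.0 normalized counts.

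At the genes lost in both lines, KRT7 had H3K27ac counts of 409 and 549 (Par), 227 and 367 (LM2) and 190.1 and 235 (BrM2). It fell in BrM2, at -1.18 ± 0.32 (SE, adjusted p = 0.0082), which was lost without Par replicate 2 or either BrM2 replicate (0.0585 to 0.342) and with 5 Mb window medians removed (0.0889), and LM2 gave -0.69 ± 0.31 (SE, adjusted p = 0.274) (0.0171 in the block). CLDN4 had 299 and 433 (Par), 200.3 and 185 (LM2) and 165 and 224 (BrM2) and gave -0.92 in LM2 and -0.92 in BrM2, with adjusted p-values of 0.0586 and 0.0511 and, in the replicate block, 0.00701 and 0.00515. SCNN1A had 347 and 483 (Par), 276 and 314 (LM2) and 221 and 258 (BrM2). Its values were -0.49 (adjusted p = 0.502) in LM2 and -0.79 (0.0864, in the block 0.00788) in BrM2. With 5 Mb window medians removed, CLDN4 had -0.48 in LM2 (adjusted p = 0.731) and -0.51 in BrM2 (0.548). SCNN1A then had -0.20 and -0.54, and neither gene had a call. The H3K4me3 log2 fold changes in LM2 and BrM2, which chose these peaks, were -1.69 and -2.47 for KRT7, -3.44 and -2.04 for CLDN4, and -3.19 and -3.88 for SCNN1A.

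KLF14 fell in both lines, at -2.83 ± 0.90 (SE, adjusted p = 0.0486) in LM2 and -4.30 ± 1.28 (SE, adjusted p = 0.0215) in BrM2, from counts of 19.2 and 33.1 (Par), 1.12 and 6.9 (LM2) and 0.975 and 1.93 (BrM2). The BrM2 call was lost without BrM2 replicate 1 or 2 (0.178 to 0.494), and that of LM2 without any one of the LM2 and BrM2 libraries (0.0786 to 0.878). A CpG-poor peak 41113 bp from ZNF596 on chromosome 8 (chr8:223569-224523) had 62.7 and 86.1 (Par), 12.3 and 24.6 (LM2) and 7.8 and 9.64 (BrM2) and fell, at -2.05 ± 0.51 (SE, adjusted p = 0.00413) in LM2 and -3.12 ± 0.62 (SE, adjusted p = 5.98e-05) in BrM2. With 5 Mb window medians removed the BrM2 value was -1.95 (adjusted p = 0.0445), while both calls of KLF14 were lost (0.190 and 0.0966). The LM2 call near ZNF596 was lost without Par replicate 1, Par replicate 2 or LM2 replicate 1 (up to 0.492) and the BrM2 call there without BrM2 replicate 1 (0.0717). H3K27ac peaks within 500 kb had a median of -1.33 in BrM2, whose part was not tested. TNFSF10 had 199 and 168 (Par), 80.8 and 49.3 (LM2) and 126 and 102 (BrM2) and fell in LM2, at -1.48 ± 0.35 (SE, adjusted p = 0.0018), with BrM2 at -0.68 ± 0.35 (SE, adjusted p = 0.32). Without Par replicate 1 or LM2 replicate 2 the LM2 value had an adjusted p of 0.138 to 0.176. CFLAR had 474 and 573 (Par), 300.1 and 274 (LM2) and 318 and 297 (BrM2), with -0.86 ± 0.26 (SE, adjusted p = 0.0308) in LM2, which no fit without a library kept (0.0718 to 0.423), and -0.77 ± 0.26 (SE, adjusted p = 0.0651) in BrM2 (0.00779 in the block). MARK2, a polarity kinase, fell in BrM2, at -2.77 ± 0.64 (SE, adjusted p = 0.0011), lost without Par replicate 2 (0.0945) or BrM2 replicate 1 (0.243), and IFI27 fell there, at -1.76 ± 0.55 (SE, adjusted p = 0.0316), which no fit without a library kept. The highest values of the class were at MFSD2B (0.51 in BrM2, -0.99 in LM2) and a peak near C4orf36 (0.35 and -1.75), none of which was called. With 5 Mb window medians removed, CFLAR in LM2 (adjusted p = 0.119) and IFI27 in BrM2 (0.0600) had no call.

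The lost peaks were spread over the genome, with runs in a few places. The share of eligible peaks lost in either line ran from 0 of 272 on chromosome 13 and 0.430% on chromosome 15 to 3.86% on chromosome 8 and 4.44% on the X chromosome. On chromosome 18, 7 peaks were lost in LM2 (3.24%) and none in BrM2. Within 1 Mb of the next lost peak of the same line lay 46 of the 163 LM2 losses, in 20 runs, and 36 of the 156 BrM2 losses, in 16 runs.

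The largest run in BrM2 covered 667 kb of chromosome 8 and held FAM86B3P (chr8:8084578-8086902), PRAG1, CLDN23 and MFHAS1, which were all of its 4 eligible peaks. FAM86B3P is a pseudogene with close copies, so its reads may be shared with them. Of the 20 H3K27ac peaks that overlapped this stretch, 18 were lower in BrM2 against Par, at a median log2 fold change of -3.01, and the median in LM2 was -0.36. CLDN23 fell, at -2.42 ± 0.52 (SE, adjusted p = 2.84e-04) and FAM86B3P fell, at -4.09 ± 0.89 (SE, adjusted p = 3.93e-04), both lost without BrM2 replicate 1 (0.0705 and 0.163). In the 1 Mb to either side, 8 H3K27ac peaks had a median of -1.44 and 4 eligible H3K4me3 peaks a median of -1.07. The surrounding peaks were lower in BrM2 as well. With the median of each 5 Mb window removed, CLDN23 had an H3K27ac log2 fold change of -0.60 and FAM86B3P one of -2.28, both without a call (adjusted p = 0.780 and 0.164, DESeq2), and PRAG1 one of -1.73 (0.0379). DNA copy number was not analysed here, so the values of this run are not per copy.

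**Figure D5:**
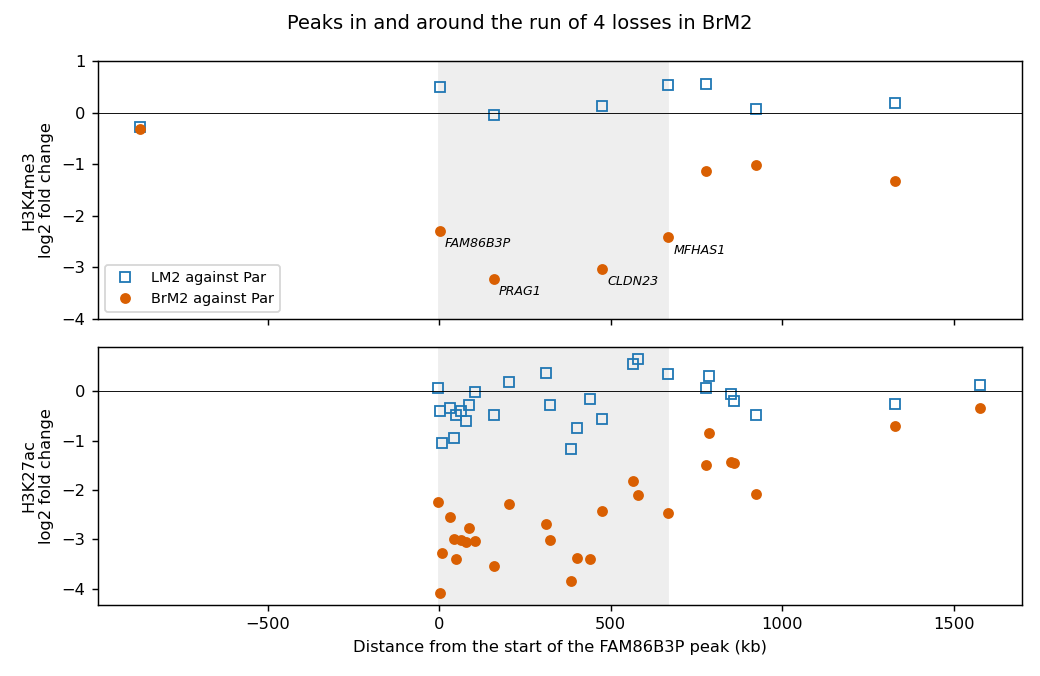
Log2 fold change against Par of eligible H3K4me3 peaks (top) and H3K27ac peaks with a mean count of at least 20 (bottom), by distance from the start of the FAM86B3P peak; filled circles are BrM2, open squares LM2, and grey marks the run. All 20 H3K27ac peaks of the run lie between -4.09 and -1.82 in BrM2, whereas LM2 has a median of -0.36.

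The other large runs were less uniform. On chromosome 11, BSCL2, PLAAT5, LGALS12 and MARK2 were lost in LM2 among 22 eligible peaks, whose median ratio to Par was 0.868 and 0.869 in the replicates, and 1 of 25 H3K27ac peaks was called lower. On chromosome 7, ZNF727 and peaks near ZNF680 (chr7:64034930-64035989) and ZNF92 were lost in both lines among 16 eligible peaks, with median ratios of 0.530 and 0.544 in BrM2 and 0.578 and 0.685 in LM2. The 12 H3K27ac peaks there had medians of -0.71 in BrM2 and -0.72 in LM2. CLDN4 and KLF14 each lay in a further run of 3 LM2 losses on chromosome 7. In LM2, 35 of 40 H3K27ac peaks of the CLDN4 run and 29 of 32 of the KLF14 run were below 0. So were 66.8% of H3K27ac peaks at kept H3K4me3 peaks and 51.5% of all H3K27ac peaks. On the X chromosome KDM5C lay in a run of 3 BrM2 losses among 10 eligible peaks with median ratios of 0.443 and 0.487. All 8 H3K27ac peaks there were below 0 in BrM2 with a median of -1.34, while LM2 had 0.09. In BrM2, 56.1% of H3K27ac peaks at kept H3K4me3 peaks and 50.9% of all were below 0.

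Over all lost peaks, close neighbours differed less than the lost peaks themselves, which for H3K4me3 follows from the choice of the lost peaks. Within 25 kb of an LM2 loss, 83 other H3K4me3 peaks had a median log2 fold change of -0.02 and 178 H3K27ac peaks one of -0.21, against 0.01 and -0.07 over all peaks. Within 25 kb of a BrM2 loss the medians were -0.07 and -0.17, against -0.05 and -0.03. For 123 of the 163 LM2 losses the H3K27ac peaks within 500 kb had a median above -0.5, and 22 of 87 tested there were lower, with a median of -0.99. For BrM2 this held for 116 of 156, with 18 of 87 lower and a median of -0.96. For the 28 and 33 losses with lower neighbours the medians were -1.29 and -1.69, and 6 of 22 and 10 of 24 tested were lower. Over all tested H3K27ac peaks, 0.907% were lower in LM2 and 1.67% in BrM2.

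The lost promoters were counted over fixed gene lists, which do not hold every gene of a family. MIXL1, lost in BrM2, and DACT2, lost in LM2, are not on the homeobox and WNT lists. The counts below hold for listed genes only. Of all 11866 eligible promoter peaks, 0.750% were lost in LM2 and 0.691% in BrM2. Of 34 at keratin and epithelial junction genes, 2 were lost in LM2 (5.88%) and 4 in BrM2 (11.8%), namely KRT7 and CLDN4 in both and CLDN23 and CLDN11 in BrM2. Of 77 at listed homeobox genes, 3 were lost in LM2 (3.90%) and 2 in BrM2 (2.60%), namely PAX9, GBX2, PITX3 and IRX1. Of 59 at ion channel genes 2 were lost in each line, SCNN1A in both, SCN8A in LM2 and KCNE1 in BrM2. Of 96 at listed interferon and MHC class I genes, 1 was lost in LM2 and 3 in BrM2, namely IFI27, IFITM10 and TRIM61. Of 214 at zinc finger genes of chromosome 19, 3 were lost in LM2, ZNF415, ZNF582 and ZNF132, and none in BrM2. ZNF415 (chr19:53635145-53636388) measured 18.1 and 33.5 (Par), 5.28 and 12.3 (LM2) and 7.2 and 15.1 (BrM2) CPM, so that BrM2 was below Par too. PAX9 (chr14:37131016-37131905), on the homeobox list and lost in LM2 only, measured 3.15 and 8.04 (Par), 0.459 and 1.52 (LM2) and 5.02 and 7.31 (BrM2) CPM. The sodium channel gene SCN8A (chr12:51984316-51984975) measured 4.01 and 3.43 (Par), 0.459 and 0.305 (LM2) and 4.37 and 5.7 (BrM2) CPM. Among the BrM2 losses CLDN11 (chr3:170136174-170136919), a claudin, measured 4.87 and 4.47 (Par), 8.49 and 8.84 (LM2) and 0.655 and 0.496 (BrM2) CPM, and COL24A1 (chr1:86621470-86622629), a collagen, measured 3.15 and 9.09 (Par), 4.13 and 11.1 (LM2) and 0.655 and 2.73 (BrM2) CPM.

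Among the listed genes, single promoters were lost at KLF and SP factors (KLF14, of 22 peaks), WNT genes (FZD9, of 37) and TGF-beta and BMP genes (GDF15, of 58). The same held for listed extracellular matrix genes (COL24A1 in BrM2, of 70), mesenchymal genes (S100A4 in BrM2, of 11) and cell cycle genes (CDK20 in LM2, of 97). None was lost among 25 promoter peaks of listed Polycomb complexes, 8 of SOX, 31 of FOX and 13 of T-box and GATA factors. Nor was any lost among 10 of listed protocadherins, 5 of cadherins, 17 of Eph receptors and ephrins and 42 of axon guidance genes. The lists of chemokines and interleukins (32 peaks) and of growth factor receptors and ligands (54 peaks) also held no lost promoter. Among the 33 keratin and junction promoters with a tested H3K27ac peak, 1 was lower in LM2 and 3 in BrM2, against 65 of 11511 and 165 of 11554 over all eligible promoters, and the list medians were -0.11 and -0.14, against -0.14 and -0.08. With so few members per list, these shares rest on single genes.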

How the data were processed

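ChIP-seq of H3K4me3 and H3K27ac was analysed in MDA-MB-231 (Par), LM2 and BrM2 cells, in 12 of the 15 samples. The 3 inputs were not analysed here. Per the labels and the study's methods, the authors demultiplexed reads with CASAVA 1.8.2, trimmed them with Trimmomatic 0.32, aligned them to hg19 with Bowtie2 2.3.4.3, processed them with Picard 2.18.21 and SAMtools, and called broad consensus peaks with MACS2 2.1.2 on the merged libraries of a mark. HOMER 4.10 is also named. The authors deposited unnormalized counts of reads in each such peak, which per the file headers come from featureCounts 1.6.0, without strand and with reads extended by 150 bases. Because the peaks were called on merged libraries, a weak peak of 1 line is under-represented. The deposited peak lists hold the same regions and were not used. All count columns were matched to samples.

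Peak gene names come from GENCODE release 44 starts on GRCh37. A promoter peak lies within 2 kb of a protein-coding start, and "near" names the nearest such start otherwise, while "in an intron" or "exon" refers to the peak's middle. CPM was the count over the column total. Each H3K4me3 peak was paired with the H3K27ac peak sharing the most bases (at least 1). DESeq2 1.42.0 (R 4.3.3) was run on the 6 libraries of a mark with the line as the term and 3 residual degrees of freedom, with Benjamini-Hochberg adjustment over all peaks of the mark and a threshold of 0.05. Normalized counts are counts over DESeq2 size factors, and a value after ± is a standard error. Genes without an adjusted p were left out of tested counts. Alternatives were edgeR 4.0.16, the replicate number as a block, TMM scaling, a filter of 10 counts, other limits of the rule, a stricter pairing of peaks, removal of 5 Mb window medians, and leaving out each library. The fits were tested on simulated data. Same-numbered replicates of different lines deviated together, with correlations of 0.407, 0.607 and 0.480 for H3K27ac and 0.843, 0.788 and 0.825 for H3K4me3 (Par with LM2, Par with BrM2, LM2 with BrM2), so the numbers were taken to pair the libraries. This pairing comes from the data, not from the labels. The rule used it, while the main DESeq2 fit did not and had it only in the alternative with the replicate block.

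The lost peaks and the gene lists were chosen with earlier results of these data known. Named in each class were the 6 promoter peaks highest in Par, the 4 with the least H3K4me3 left, the 4 with the smallest H3K27ac adjusted p and up to 2 with the highest fold change, all at promoters of listed genes, and the members of the 3 largest runs. After matches were seen, a list entry that is itself a gene symbol was matched exactly, and printed sequences were limited to stretches before the start that overlap no annotated exon, and none lies on chromosome 8. One such sequence and 1 peak next to the ratio limit are not reported here. Depth limits the precision, and a floor of 3 counts per library covers counting error only.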

Additional observations from a re-analysis of the deposited data

Results flagged for a closer look

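H3K27ac differed between LM2 and BrM2 in the direct comparison (DESeq2 over all H3K27ac peaks) at 15 of the named lost peaks. There the change from Par was not the same in both lines. Some of these peaks were named for their H3K27ac adjusted p or fold change against Par in the same libraries. Their number is therefore partly set by the choice. Over all 46519 H3K27ac peaks tested, 1.22% were called lower and 1.71% higher. At peaks lost in BrM2 only, the log2 fold change of BrM2 against LM2 was -0.85 at the domain near DIPK2B (adjusted p = 0.0163), -3.07 at PRAG1 (7.57e-06), -1.66 at KDM5C (0.00640), -1.86 at CLDN23 (0.0184) and -2.11 at IFITM10 (0.000848). It was -3.16 at IRX1 (adjusted p = 0.00554), -1.65 at the GRM5 exon near CTSC (0.00193), -3.68 at FAM86B3P (0.00354) and -2.61 at the peak near NBDY (0.0487). Leaving out BrM2 replicate 1 ended all 9 of these calls, with adjusted p-values of 0.0505 for PRAG1 and up to 0.644 over all such fits that lost one.

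Leaving out LM2 replicate 2 ended all but that of PRAG1. LM2 replicate 1 decided those near DIPK2B, at KDM5C and CLDN23 and near CTSC and NBDY, and BrM2 replicate 2 those near DIPK2B, CTSC and NBDY and at CLDN23, IRX1 and FAM86B3P. The call at CLDN23 was also lost without Par replicate 1, and that near NBDY without either Par library. With the median of each 5 Mb window removed, the calls at IFITM10 and IRX1 were kept, while PRAG1 had -1.19 (adjusted p = 0.417), KDM5C -0.75 (0.656), FAM86B3P -1.80 (0.521), the GRM5 exon near CTSC -1.26 (0.0562) and the peak near NBDY -2.41 (0.120). The domain near DIPK2B (0.028) and CLDN23 (0.022) were near 0.

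At peaks lost in LM2 only, the same comparison gave 1.76 at ZYG11A (adjusted p = 0.00382, DESeq2), 2.22 at FAM24B (0.00156), 1.13 at MANCR (0.00431), 4.70 at DACT2 (1.61e-07), 2.47 at KBTBD8 (0.00246) and 2.90 at the ZNF675 intron (2.83e-19). The calls at DACT2 and the ZNF675 intron held without any one of the 6 libraries. Those at ZYG11A, FAM24B and MANCR were each lost without LM2 replicate 1, LM2 replicate 2 or BrM2 replicate 1, and those at ZYG11A and MANCR also without BrM2 replicate 2 (0.0535 to 0.567). That at KBTBD8 was lost without LM2 replicate 1 or BrM2 replicate 1 (0.328 to 0.867) and with the replicate block (adjusted p = 0.145). With 5 Mb window medians removed, ZYG11A (0.0757), MANCR (0.0673) and KBTBD8 (0.0734) had no call, whereas FAM24B, DACT2 and the ZNF675 intron kept theirs.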

How the results depend on the processing

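The number of lost peaks follows the limits of the rule. In LM2, BrM2 and both lines it was 104, 103 and 28 at a ratio of 0.3, 248, 241 and 77 at 0.5, 305, 355 and 93 with a parental minimum of 1 CPM, and 48, 42 and 15 with 10 CPM. It was 104, 100 and 30 when every metastatic replicate was set against both Par replicates, and 330 to 384, 292 to 371 and 109 to 111 on 1 replicate number alone. Other scalings of CPM stayed within 1.5 times of the counts. The H3K27ac medians kept their direction in every alternative run. In edgeR, 47 BrM2 losses were lower in BrM2 and 34 LM2 losses higher in the direct comparison, beside 2.45% and 2.05% of all peaks. With the replicate block, DESeq2 called 34 LM2 and 35 BrM2 losses lower and 25 and 20 in the direct comparison, while its calls at kept peaks rose to 226 and 433 lower and to 325 higher and 212 lower. EdgeR with the replicate block called 73, 68, 44 and 33, but also 5.48%, 7.23%, 6.50% and 6.04% of all H3K27ac peaks in these directions. With at least 10 counts in every library, which tests fewer peaks, the medians were -0.65, -0.78, 0.45 and -0.56. The counts were 14, 13, 9 and 6, beside 0.901%, 2.34%, 1.41% and 1.51% of all peaks. With the stricter pairing, in which at least 0.5 of the H3K27ac peak lies inside, also fewer peaks, they were 16, 16 and 12, with medians of -1.31, -1.33, 1.70 and -1.13. With 5 Mb window medians removed the medians were -0.75, -0.88, 0.88 and -0.74, and the cause was not tested. Each direct comparison then had 9 calls in its direction, beside 1.04% higher and 0.600% lower of all peaks. That at peaks lost in LM2 only also had 1 call in the opposite direction. Without 1 library the counts ran from 5 to 22 (medians -1.10 to -0.80), 6 to 20 (-1.28 to -1.03), 3 to 14 (0.93 to 1.07) and 0 to 14 (-0.96 to -0.82).

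Of 82 results of single peaks under up to 12 alternatives, 709 of 906 values kept direction and call, 126 lost a call, 63 gained one and 8 turned. With window medians removed, 19 calls were lost and the direct comparison turned to 0.028 near DIPK2B and 0.022 at CLDN23, and LM2 against Par to 0.18 at DNMBP. BrM2 against Par turned without 1 library at 5 peaks, with lowest and highest values of -0.093 (without BrM2 replicate 2) and 0.89 at COCH, -0.90 and 0.38 (without Par replicate 1) at CLDN11, -0.82 (without BrM2 replicate 1) and 0.92 near C4orf36, -0.71 (without BrM2 replicate 1) and 1.12 at MFSD2B, and -0.0067 (without Par replicate 2) and 0.61 at PITX3. None of these 5 was called. In the replicate block 14 results of single peaks gained a call and 1, KBTBD8 in the direct comparison, lost it. Depth limits the weak peaks most, since the shallowest H3K27ac library, BrM2 replicate 2, held 1994996 counts.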
